A study of Schima superba and Cryptocarya concinna with 24 samples.

Results

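Cryptocarya concinna, an evergreen tree of the laurel family, had 2 unigenes with a RADIALIS-like description among the 60814 assembled transcripts (unigenes) of its leaf transcriptome. Unigene17301 was described as protein RADIALIS-like 3 and Unigene8154 as protein RADIALIS-like 2, from the best protein database hit given in the authors' table. These are all the unigenes of C. concinna whose description holds RADIALIS or RAD-like, and Schima superba, the other tree in the series, had 4 among 57053 unigenes. Both C. concinna unigenes were picked with their FPKM values in the 4 leaf groups already known, so their levels and differences are given as a description, with no test. In the fits across all unigenes that serve as background below, both passed the filter on low values.

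Seedlings of both trees, taken from a subtropical evergreen forest, were grown either in full sunlight (full light) or under black nylon net that let through 30% of it (low light). Mature and young leaves in each light gave 4 groups of 3 C. concinna libraries: mature full light, mature low light, young full light and young low light. S. superba gave the same 4 groups of 3 libraries, 24 libraries in all. No agent or genotype differed between groups, and separate plants for the replicates are not named in the labels. The p-values therefore reflect the scatter among libraries, which may be technical. RNA came from whole leaves, so fewer cells of a type and less RNA per cell cannot be told apart. Groups of 3 libraries that do not differ still fail to overlap with a probability of 0.1. The share of all unigenes whose groups do not overlap was not counted, so overlap is given below as a description only.

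RADIALIS proteins are small nuclear proteins with a single MYB (SANT-type) domain. In snapdragon, where the family was named, RADIALIS acts downstream of the TCP factor CYCLOIDEA to make the flower asymmetric, and it counters the MYB factor DIVARICATA by competing for shared partner proteins. In tomato a RADIALIS-like protein limits cell expansion in the fruit through the same kind of competition, and in Arabidopsis relatives of RADIALIS have been tied to early seedling growth and to the light-signalling factor HY5.

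Libraries of C. concinna summed to between 788453 and 977277 FPKM, and between 31663 and 44030 unigenes reached 1 FPKM. FPKM are fragment numbers scaled by unigene length and library size; no counts were used here, so the depth behind each value is unknown and no counting interval was computed. In mature full light leaves a single unigene, CL2130.Contig2, described as a repetitive proline-rich cell wall protein, made up 7.29%, 22.5% and 30.8% of the summed FPKM of replicates 1 to 3, against 8.94%, 10.5% and 7.43% in mature low light leaves. Mature low light replicate 2 stood apart from its group in expansin and xyloglucan endotransglucosylase unigenes, with a summed level of 1476 FPKM against 820 and 879 FPKM in the other two. The light difference in mature leaves is therefore given below also without these libraries and without that unigene.

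Unigene17301 was expressed in every C. concinna library, at a level that ran from 53.24 to 1758.58 FPKM. In mature full light leaves it had 93.55, 77.24 and 53.24 FPKM, and in mature low light leaves 1758.58, 938.29 and 707.34 FPKM. All 3 full light libraries lay below all 3 low light libraries, and the lowest low light library was 7.56 times the highest full light one. The means were 74.7 ± 20.3 FPKM in full light and 1135 ± 552 FPKM in low light (SD, n = 3 each), 15.2-fold lower in full light. The difference of mean log2(FPKM + 1), full minus low light, was -3.84 with a standard error of 0.57 from the fit across all unigenes, and 5 of the 53005 tested unigenes had a more negative one.

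In young leaves the light groups of Unigene17301 overlapped. Young full light leaves had 206.47, 775.58 and 1019.41 FPKM, and young low light leaves had 549.52, 212.8 and 209.92 FPKM. Replicate 1 of full light lay below all 3 low light libraries, and replicates 2 and 3 lay above them. The means were 667 ± 417 FPKM and 324 ± 195 FPKM (SD, n = 3 each), and the log2 difference was 0.91 with a standard error of 0.57. Without any one library it ranged from 0.46 to 1.61.

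The mean light differences of Unigene17301 had opposite signs at the 2 ages, with overlapping groups in young leaves. Over all unigenes the median in young leaves was 0.34, and after median-ratio rescaling the difference of Unigene17301 there was 0.42. Its age differences, given as a description, also had opposite signs in the 2 lights. In full light, mature leaves lay below young leaves, with a log2 difference of -2.89 and an 8.93-fold lower mean. In low light, mature leaves lay above young leaves, with a log2 difference of 1.85 and a 3.50-fold higher mean. Neither pair of groups overlapped, although the lowest mature low light library, 707.34 FPKM, was only 1.29 times the highest young low light one, 549.52 FPKM. The light difference in mature leaves minus that in young leaves was -4.75 on the log2 scale, with a standard error of 0.80.

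From high to low the mean level of Unigene17301 ran mature low light, young full light, young low light, mature full light. Mature low light and young full light overlapped, as did young full light and young low light, while young low light did not overlap mature full light. In mature low light leaves it was the highest in each library among the 522 unigenes described as a transcription factor or as RADIALIS-like, and it ranked 31, 70 and 107 among all unigenes. Among those 522 it ranked 2, 1 and 1 in young full light leaves and 1, 2 and 3 in young low light leaves. In mature full light leaves it ranked 8, 10 and 19 among them.

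Unigene8154 was a unigene of mature leaves. Mature full light leaves had 21.24, 4.37 and 1.2 FPKM, and mature low light leaves had 148.28, 118.01 and 205.91 FPKM. The groups did not overlap: the lowest low light library was 5.56 times the highest full light one. The means were 8.94 ± 10.8 FPKM in full light, where the replicates themselves spread widely, and 157 ± 44.7 FPKM in low light (SD, n = 3 each), 17.6-fold lower in full light. The log2 difference was -4.59 with a standard error of 0.61, and 2 of the 53005 tested unigenes had a more negative one.

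In young leaves Unigene8154 was at or near 0. Young full light leaves were listed at 0, 0.11 and 0.11 FPKM, and young low light leaves at 0.11, 0 and 0 FPKM. No difference between the light groups could be read at this level, and no fold between leaf ages is given against values listed at 0. On the log2(FPKM + 1) scale the difference of mature minus young leaves was 2.58 in full light and 7.22 in low light, sizes that depend on the added 1. All mature libraries of each light lay above all young ones. The order of mean levels was mature low light, then mature full light, then the 2 young groups, which overlapped each other.

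**Figure D1:**
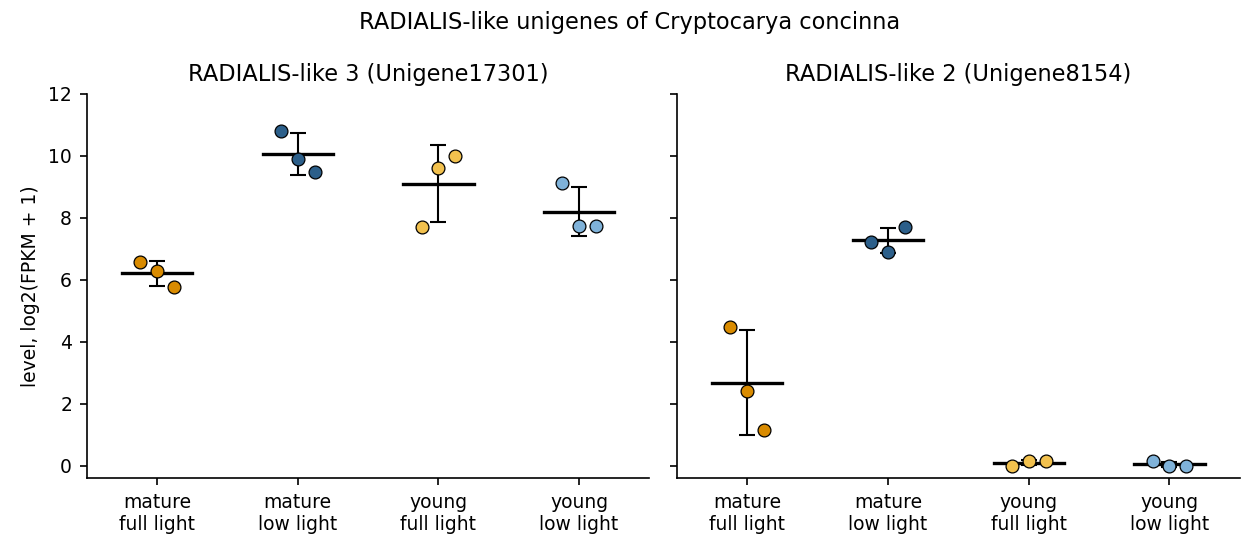
Level of Unigene17301 (left) and Unigene8154 (right) in each C. concinna library as log2(FPKM + 1), with the group mean and SD on that scale (n = 3). In both, mature full light lies below mature low light with no overlap; in young leaves Unigene17301 stays between 206.47 and 1019.41 FPKM while Unigene8154 is at 0.11 FPKM or listed at 0.

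Both unigenes were lower in full light than in low light in mature leaves, while their levels in young leaves set them apart. Unigene17301 exceeded Unigene8154 in every library. In mature full light leaves the ratio of Unigene17301 to Unigene8154 was 4.40, 17.7 and 44.4, and in mature low light leaves 11.9, 7.95 and 3.44. The ratio thus overlapped between the light groups. Summed over both, RADIALIS-like FPKM was 115, 81.6 and 54.4 in mature full light, 1907, 1056 and 913 in mature low light, 206, 776 and 1020 in young full light, and 550, 213 and 210 in young low light.

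Of all 53005 tested unigenes, 0.0566% were called at an adjusted p under 0.05 for light in mature leaves by limma with Benjamini-Hochberg adjustment, 16 higher and 14 lower in full light. Both RADIALIS-like unigenes were among the 14 lower, which were 0.0264% of those tested; since they were picked with this difference known, nothing is read from that. In the age comparisons both were among the calls too, beside 28.4% of all unigenes in full light and 37.8% in low light; nothing is read from these calls either. Neither was among the 16 calls for light in young leaves (0.0302%) or the 3 for light by age (0.00566%). The calls for light in mature leaves depended on single libraries: both unigenes were kept in 3 of 12 fits that each left out 1 library, and neither in 4 of 12. For age in low light both were kept in 9 of 12 such fits and 1 in the others, and for age in full light in all 12. As the pair was picked on these values, none of these calls or fits is read as a test of it.

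**Figure D2:**
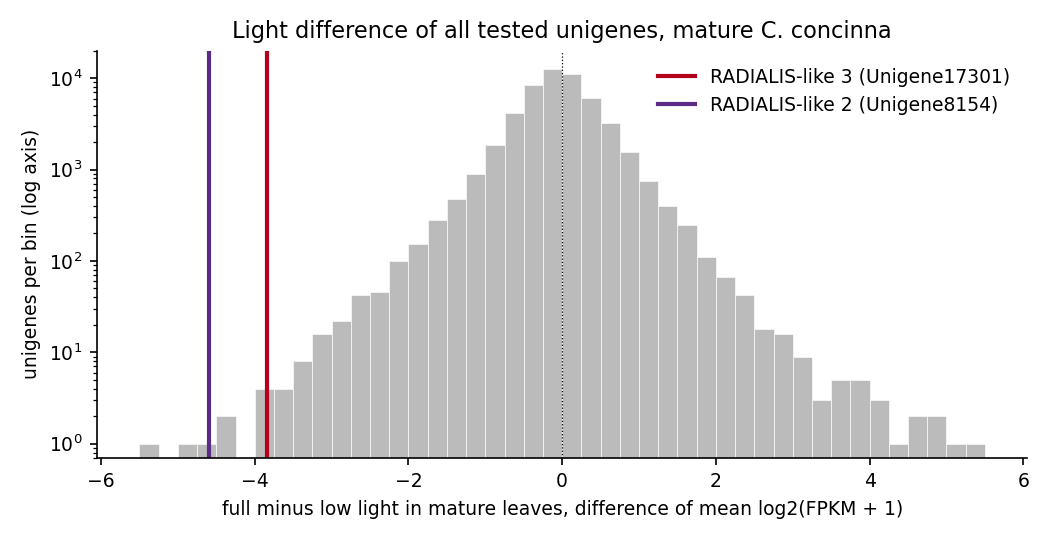
Number of tested C. concinna unigenes (log axis) by light difference in mature leaves, full minus low light, as difference of mean log2(FPKM + 1) in bins of 0.25. The lines mark Unigene17301 at -3.84 and Unigene8154 at -4.59, at the lower end of the 53005 unigenes.

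The light difference in mature leaves was about as large without the libraries and the unigene that stood apart. Without mature low light replicate 2 it was -3.92 for Unigene17301 and -4.78 for Unigene8154. Rescaled to the summed FPKM without CL2130.Contig2, it was -3.73 for Unigene17301 and -4.52 for Unigene8154. Leaving out mature full light replicates 1, 2 and 3 in turn gave -4.02, -3.88 and -3.62 for Unigene17301 and -5.49, -4.46 and -3.82 for Unigene8154. Over all tested unigenes the median light difference in mature leaves was -0.05, and 0 after median-ratio rescaling.

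Summed levels of cell type markers, chosen by words in the descriptions, were compared between the mature groups. The 35 vascular unigenes summed to 405 to 461 FPKM in mature full light and 401 to 546 FPKM in mature low light. The 13 trichome, epidermis and guard cell unigenes summed to 51.9 to 66.2 FPKM in full light and 52.0 to 59.9 FPKM in low light, and the 30 flower and meristem unigenes to 74.5 to 93.0 FPKM and 79.2 to 107 FPKM. In each of these lists the summed levels of the mature light groups overlapped. No unigene of them was called for light in mature leaves by limma, which at 0.0566% called over all unigenes is the background rate; at an unadjusted p under 0.05 there were 0 higher and 2 lower vascular, 0 epidermal, and 1 higher and 0 lower flower and meristem unigenes. Between ages, 28.4% of all unigenes were called in full light and 37.8% in low light, with medians of -0.17 and 0.27. Of 32 tested vascular unigenes 4 were higher and 6 lower in mature leaves in full light, near that share, with a median of -0.17, and 10 higher and 7 lower in low light. Of 13 epidermal unigenes 0 were higher and 9 lower in full light (median -1.32), and 0 higher and 8 lower in low light (median -1.77; limma, with 0 and 1 higher at an unadjusted p under 0.05). Of 26 tested flower and meristem unigenes 1 was higher and 13 lower in full light, and 2 higher and 14 lower in low light. Their part in the age differences of the RADIALIS-like unigenes was not tested.

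Descriptions of the families with which RADIALIS is known to act were followed next. A list of DIVARICATA and other MYB-related descriptions (27 tested), Myb/SANT-like descriptions (1 tested) and TCP factors (13 tested) held 41 unigenes apart from the RADIALIS-like pair. For light in mature leaves limma called 0 of the 41, with 1 higher and 2 lower at an unadjusted p under 0.05 and a median log2 difference of -0.09, close to the -0.05 over all unigenes. With 0.0566% of all unigenes called, a count of 0 in a list of this size is the background rate. For light in young leaves it called 0 as well, beside 0.0302% of all unigenes, with 4 higher and 0 lower at an unadjusted p under 0.05 and a median of 0.30, against 0.34 over all unigenes. The words used take in look-alikes, such as R2R3 factors named myb-related proteins and single myb histones.

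DIVARICATA, the MYB factor that RADIALIS counters in snapdragon, was the description of 3 unigenes. Unigene14778 had 20.49, 15.52 and 19.74 FPKM in mature full light and 39.88, 27.68 and 33.33 FPKM in mature low light. These groups did not overlap, but the log2 difference of -0.82 (SE 0.25) did not pass limma's adjustment over all unigenes, with an adjusted p of 0.454. In young leaves its levels overlapped, with 28.95, 38.82 and 31.93 FPKM in full light and 33.75, 20.5 and 32.68 FPKM in low light. Mature leaves were lower than young ones in full light, by a log2 difference of -0.81 (adjusted p = 0.0298, limma), whereas the value in low light was 0.23 (adjusted p = 0.497, limma).

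The other DIVARICATA descriptions belonged to CL7265.Contig1 and CL7265.Contig2, contigs of one cluster, so reads may be split between them. Both were higher in mature leaves. CL7265.Contig1 differed by 1.72 in full light and 1.24 in low light on the log2 scale (adjusted p = 0.00724 and 0.0300, limma), and CL7265.Contig2 by 1.37 and 1.92 (adjusted p = 0.0275 and 0.0038, limma). Summed over the cluster, the level was 22.18, 12.36 and 9.76 FPKM in mature full light, 9.04, 10 and 13 FPKM in mature low light, 3.82, 3.55 and 3.06 FPKM in young full light, and 3.04, 2.49 and 1.5 FPKM in young low light. The mature light groups overlapped.

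Between leaf ages many unigenes of the whole table were called, and the related lists are given beside that share. Of the 27 DIVARICATA and MYB-related unigenes, 4 were higher and 10 lower in mature leaves in full light, and 6 higher and 8 lower in low light. Over all unigenes 8.19% were called higher and 20.2% lower in full light, and 20.7% higher and 17.1% lower in low light; after median-ratio rescaling the full light calls split into 7255 higher and 7763 lower, in place of 4341 and 10691. Among them Unigene40955, myb-related protein 308-like, was lower in mature leaves in full light, at 12.2 ± 5.70 FPKM against 102 ± 5.45 FPKM in young leaves (SD, n = 3 each; log2 difference -3.07, adjusted p = 0.000267, limma). Unigene6637, myb-related protein 330-like, was lower in mature leaves in low light, at 4.11 ± 4.55 FPKM against 35.2 ± 5.29 FPKM in young leaves (SD, n = 3 each; log2 difference -3.17, adjusted p = 0.000202, limma).

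TCP factors, the family of CYCLOIDEA, are regulators of cell proliferation and leaf growth. Of 13 tested, 6 were lower in mature leaves in full light and 3 in low light; 0 were higher (limma; also 0 at an unadjusted p under 0.05). Over all unigenes 20.2% were lower in full light and 17.1% in low light, so the low light count is near the background; the list's medians were -0.64 and -0.60, against -0.17 and 0.27 over all unigenes. Unigene44080, TCP15-like, was lower in mature leaves in both lights, at 0.803 ± 0.310 FPKM against 11.5 ± 3.07 FPKM in full light (log2 difference -2.78, adjusted p = 0.000182, limma) and 3.24 ± 2.19 FPKM against 16.2 ± 1.33 FPKM in low light (-2.15, adjusted p = 0.000878, limma; SD, n = 3 each). No TCP description in C. concinna named CYCLOIDEA itself, and the single Myb/SANT-like unigene was called in no comparison.

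HY5, a bZIP factor of light signalling, was Unigene17288. It had 11.15, 7.38 and 4.31 FPKM in mature full light and 4.75, 3.23 and 0.79 FPKM in mature low light. In young leaves it had 64.4, 54.32 and 50.32 FPKM in full light and 22.28, 14.42 and 37.0 FPKM in low light. HY5 was lower in mature leaves in full light (log2 difference -2.81, adjusted p = 0.000664, limma) and in low light (-2.76, adjusted p = 0.000602). Its light differences, 1.21 in mature and 1.26 in young leaves, did not pass (adjusted p = 0.617 and 0.205, limma), and were opposite in sign to those of the RADIALIS-like unigenes in mature leaves. In the whole list of 28 light-signalling descriptions, which includes DNA helicases named PIF1, 0 were called for light at either age (limma). With 0.0566% of all unigenes called in mature and 0.0302% in young leaves, that is the background rate. At an unadjusted p under 0.05 in limma, 2 were higher in mature and 6 higher in young leaves. The list's median light differences were 0.11 in mature and 0.64 in young leaves, against -0.05 and 0.34 over all unigenes. By age 1 was higher and 6 lower in mature leaves in full light, and 6 higher and 4 lower in low light, close to the shares of 28.4% and 37.8% called over all unigenes.

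Growth-related lists held more unigenes called lower than higher in mature leaves in both lights. Over all unigenes 20.2% were called lower and 8.19% higher in full light, and 17.1% lower and 20.7% higher in low light. Expansins and xyloglucan endotransglucosylases loosen and remodel the cell wall as cells expand; of 38 tested, 28 were lower and 2 higher in mature leaves in full light, and 27 lower and 3 higher in low light, with medians of -2.39 and -2.58. CL3876.Contig1, expansin-A15-like, was listed at 0 in all 6 mature libraries and had 154.41 to 998.32 FPKM in the young ones. Of 176 cell cycle unigenes, 92 were lower and 6 higher in full light, and 82 lower and 15 higher in low light, with medians of -1.26 and -0.998; the others of each list were not called. Unigene6049, cyclin-D3-2, which drives entry into the cell cycle, had 5.14 ± 5.59 FPKM in mature and 133 ± 20.4 FPKM in young leaves in low light (SD, n = 3 each; log2 difference -4.83, adjusted p = 4.1e-05, limma). Unigene17301 in low light and Unigene8154 in both lights had the opposite sign, with higher levels in mature leaves. Unigene17301 in full light had the same sign as these lists, with a log2 difference of -2.89.

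Light-harvesting antenna unigenes, whose proteins bind chlorophyll, were 52 tested. For light in mature leaves 1 was called higher and 0 lower in full light (limma), beside 0.0302% higher and 0.0264% lower over all unigenes. At an unadjusted p under 0.05 in limma, 14 were higher and 1 lower, a threshold for which the share of all unigenes was not counted. The list's median was -0.24, against -0.05 over all unigenes. The called unigene was CL542.Contig12, at 6.06 ± 1.82 FPKM in full light and 0.427 ± 0.316 FPKM in low light (SD, n = 3 each). Its log2 difference was 2.30 (adjusted p = 0.0209, limma). It is 1 contig of a cluster, so reads may be shared, and its call was lost in 6 of 12 fits that left out 1 library. By age, 15 were higher and 2 lower in mature leaves in full light, and 15 higher and 18 lower in low light, beside 8.19% higher and 20.2% lower over all unigenes in full light and 20.7% higher and 17.1% lower in low light. Summed antenna FPKM overlapped between mature full light, 18789 to 28841, and mature low light, 24340 to 38246 with the highest value in replicate 2.

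**Figure D3:**
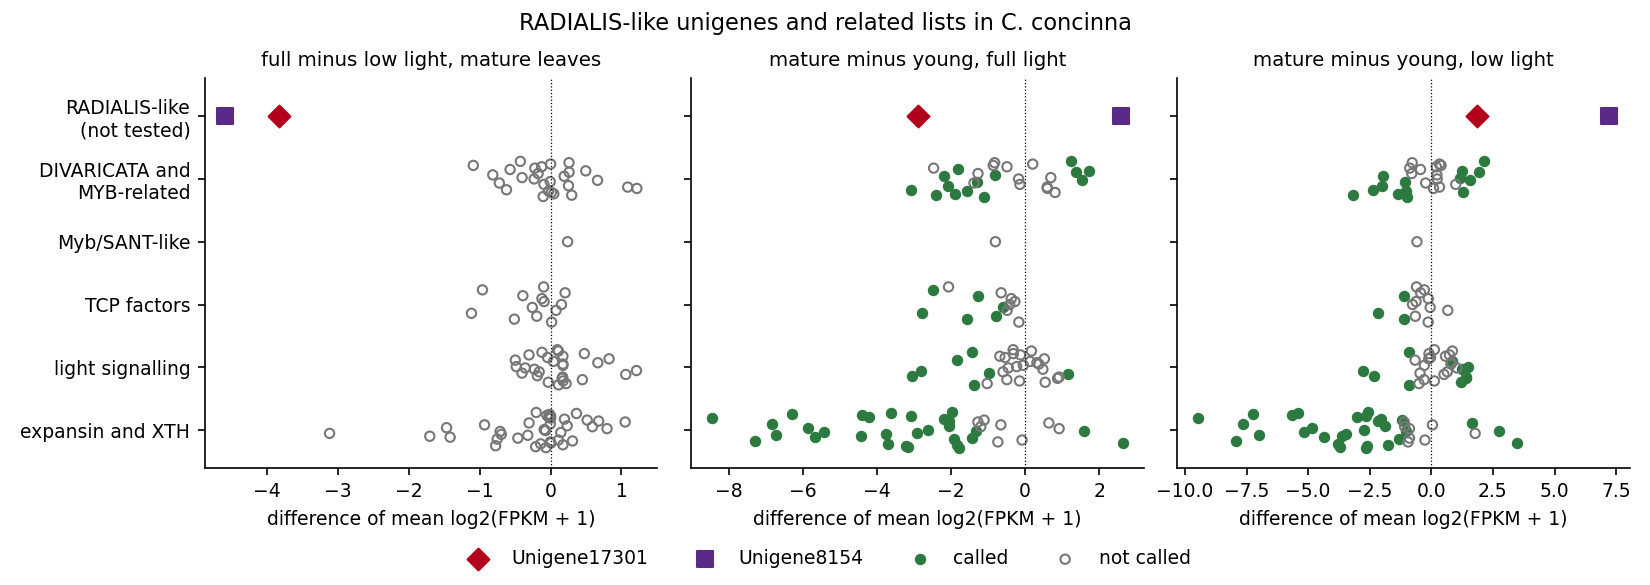
Difference of mean log2(FPKM + 1) for the RADIALIS-like pair (diamond and square, not tested) and for each tested unigene of 5 related lists in C. concinna; filled green points passed an adjusted p of 0.05 in limma and open points did not. For light in mature leaves all points of the 5 lists are open, and Unigene17301 and Unigene8154 lie at -3.84 and -4.59.

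Unigenes with the profile nearest to each RADIALIS-like unigene were looked up over the 12 libraries, among 12219 unigenes with a usable description and a mean of at least 5 FPKM in their highest group. Likeness was the root mean square difference of log2(FPKM + 1) after each profile was centred, so 0 is an identical shape. A flat profile would differ by 1.57 from Unigene17301 and by 3.02 from Unigene8154, so the size of the changes counts as well as their direction. The RADIALIS-like pair were not near each other by this measure. Their difference was 2.87, which ranked Unigene17301 number 3119 from Unigene8154 and Unigene8154 number 11980 from Unigene17301.

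Nearest to Unigene8154 was Unigene29339, a copper-containing amine oxidase (difference 1.16), an enzyme that oxidises polyamines. It had 52.84, 23.21 and 16.9 FPKM in mature full light, 68.55, 47.34 and 206.2 FPKM in mature low light, and at most 0.93 FPKM in young leaves. Its mature light groups overlapped. Unigene19381, glutaredoxin-C1-like (difference 1.38), belongs to the small redox proteins that use glutathione. It had 45.7, 5.42 and 32.46 FPKM in mature full light and 262.45, 161.85 and 312.04 FPKM in mature low light, with no overlap. Next came Unigene35871, receptor-like protein 12 (1.40), Unigene39022, nucleolar transcription factor 1 (1.40), and CL1397.Contig3, nudix hydrolase 8-like (1.42). Unigene39022 was also the nearest factor, followed by CL2210.Contig2, IBH1-like (1.51), and CL7222.Contig2, WRKY 47-like (1.51).

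IBH1 is a helix-loop-helix protein that restrains cell elongation in Arabidopsis. CL2210.Contig2 had 29.35, 18.9 and 29.25 FPKM in mature full light, 51.73, 44.6 and 63.92 FPKM in mature low light, and at most 2.48 FPKM in young leaves. Its mature light groups did not overlap, with means of 25.8 and 53.4 FPKM, a smaller gap than that of Unigene8154.

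Nearest to Unigene17301 was CL6585.Contig2, described as RALFL33 (difference 0.819), a rapid alkalinization factor, one of the small secreted peptides that act on cell growth. It had 4.05, 8.47 and 6.84 FPKM in mature full light, 47.07, 188.75 and 28.39 FPKM in mature low light, 10.35, 78.46 and 65.52 FPKM in young full light, and 86.94, 17.56 and 18.62 FPKM in young low light. Within young full light both it and Unigene17301 were lowest in replicate 1, and within young low light both were highest in replicate 1. The mature replicates ran together less: in mature full light replicate 1 was the highest for Unigene17301 and the lowest for CL6585.Contig2. In mature low light Unigene17301 was highest in replicate 1 and CL6585.Contig2 in replicate 2, and both were lowest in replicate 3. CL6585.Contig2 was picked for its likeness over these same libraries. Then came Unigene3932, enolase-phosphatase E1-like (0.905), of the methionine salvage pathway, with means of 54.6 FPKM in mature full light and 332 FPKM in mature low light. Unigene28615, allene oxide synthase (0.923), of jasmonate synthesis, had 0.517 and 10.8 FPKM in the same groups.

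The list went on with CL5221.Contig3, thioesterase-like (0.956), and Unigene16355, a putative clathrin assembly protein (0.972), both with means of at most 8.16 FPKM in every group. The nearest factors were CL2287.Contig1, bHLH133-like (1.01), listed at 0 in mature full light, then Unigene5805, ILR3-like (1.23), and CL5114.Contig2, GATA 16-like (1.25). Unigene5805 had means of 17.4 FPKM in mature full light and 36.0 FPKM in mature low light. As a flat profile would differ by 1.57, Unigene5805 and CL5114.Contig2 were only loosely like Unigene17301. All these unigenes were picked for their likeness, so no test of their differences is given.

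**Figure D4:**
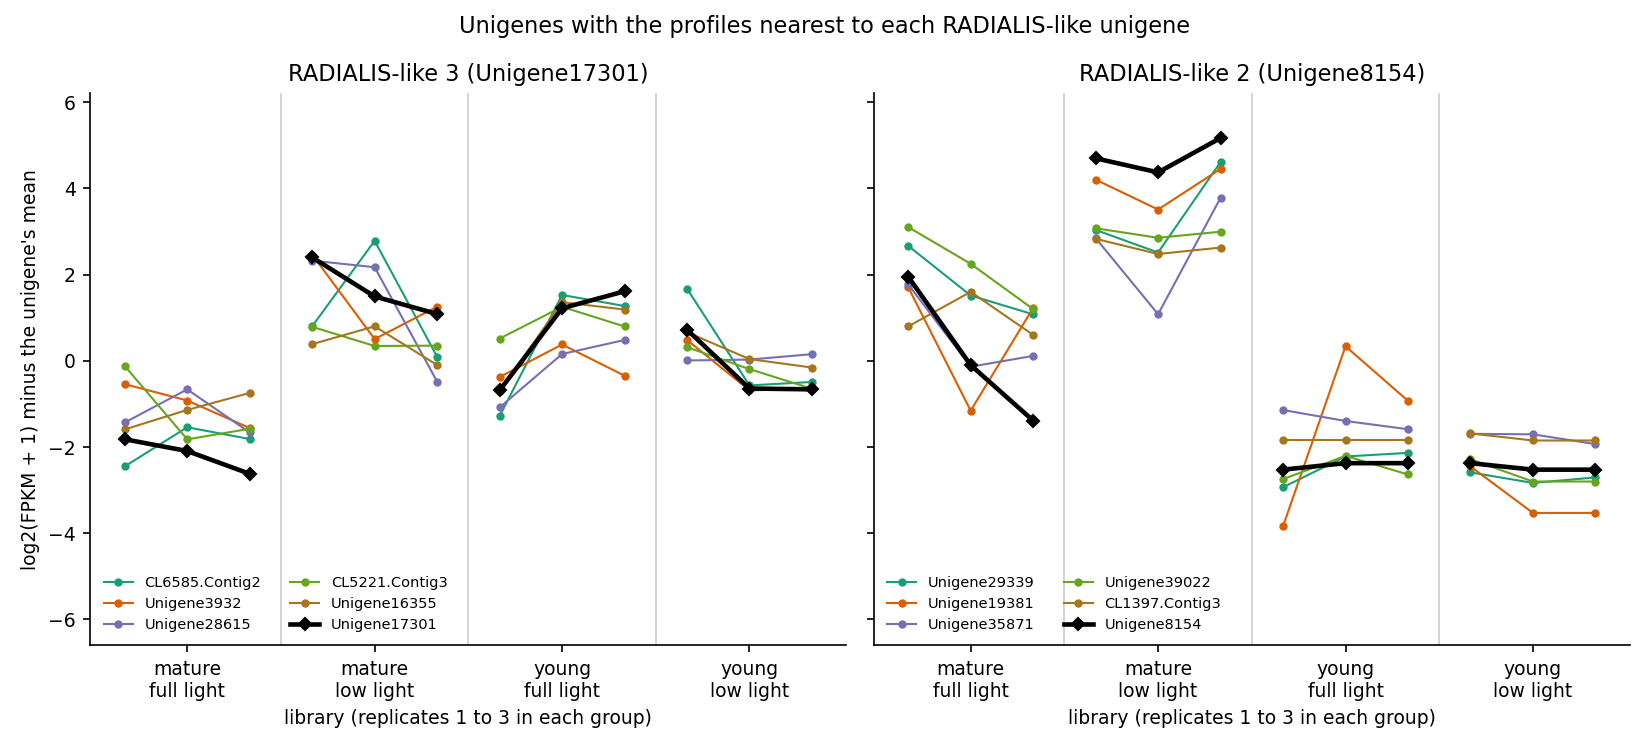
Centred log2(FPKM + 1) of each RADIALIS-like unigene (black) and its 5 nearest unigenes (colours) over the 12 C. concinna libraries, 3 replicates per group. The differences from the black line run from 0.819 to 0.972 for Unigene17301 and from 1.16 to 1.42 for Unigene8154.

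In S. superba the RADIALIS-like unigenes differed among themselves in pattern. Unigene23262 and Unigene3040, like Unigene8154 of C. concinna, had higher means in mature than in young leaves in both lights. The tables of the 2 trees were made separately, so levels were compared within a tree, and the difference between the trees was not tested. The level of Unigene23262, RADIALIS-like 1-like, was 275.93, 113.18 and 241.51 FPKM in mature full light and 76.25, 47.4 and 29.04 FPKM in mature low light. Full light was the higher here and the groups did not overlap, but the log2 difference of 2.03 (SE 0.50) did not pass (adjusted p = 0.0914, limma). It was higher in mature than in young leaves in full light, at 210 ± 85.8 FPKM against 15.4 ± 5.89 FPKM (log2 difference 3.66, adjusted p = 0.000115), and in low light, at 50.9 ± 23.8 FPKM against 13.7 ± 8.85 FPKM (1.87, adjusted p = 0.0116; SD, n = 3 each, limma). With young low light replicate 2 left out, the second of these was 1.56 (adjusted p = 0.0516, limma).

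Unigene3040, RAD-like 6, had 11.35, 5.35 and 65.54 FPKM in mature full light and 1.2, 1.43 and 0.96 FPKM in mature low light. These groups did not overlap either, yet replicate 3 alone set most of the mean, and the log2 difference of 2.99 (SE 0.79) did not pass (adjusted p = 0.115, limma). In full light it was higher in mature leaves than in young ones, which had 0.49, 5.65 and 0.24 FPKM (log2 difference 2.91, adjusted p = 0.0102, limma), although the groups overlapped. In young low light it was listed at 0 in all 3 libraries.

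Unigene24826, RADIALIS-like 4, was a unigene of young leaves. It had 19.41, 12.38 and 11.46 FPKM in young full light and 0.32, 0.96 and 2.59 FPKM in young low light, higher in full light by a log2 difference of 2.84 (SE 0.36, adjusted p = 0.00411, limma). That call was kept without any one library, with adjusted p up to 0.0255. In mature leaves it had at most 0.35 FPKM in full light and was listed at 0 in low light; mature minus young leaves gave -3.63 in full light (adjusted p = 1.2e-05) and -1.07 in low light (adjusted p = 0.0355, limma), the second lost without each of 5 libraries (up to 0.143). Its light difference was smaller in mature than in young leaves, by -2.56 on the log2 scale (adjusted p = 0.0376, limma), a call lost in 10 of 12 fits that left out 1 library. Unigene36983, RADIALIS-like 3, had at most 4 FPKM in any library and was called in no comparison.

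Across these 4 unigenes limma called 1 for light in young leaves, 0 for light in mature leaves, 3 for age in full light and 2 for age in low light. Over all tested S. superba unigenes the calls were 5.33%, 0.855%, 46% and 38.7%, and 1.61% for light by age, where 1 of the 4 was called. At an unadjusted p under 0.05 in limma, light in mature leaves had 2 of the 4, Unigene23262 and Unigene3040, both with higher levels in full light. The share of all unigenes at that threshold was not counted, so nothing is read from this. The light differences in mature leaves were 2.03 for Unigene23262, 2.99 for Unigene3040, 0.28 for Unigene24826 and -0.62 for Unigene36983, beside -3.84 and -4.59 for the pair of C. concinna.

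**Figure D5:**
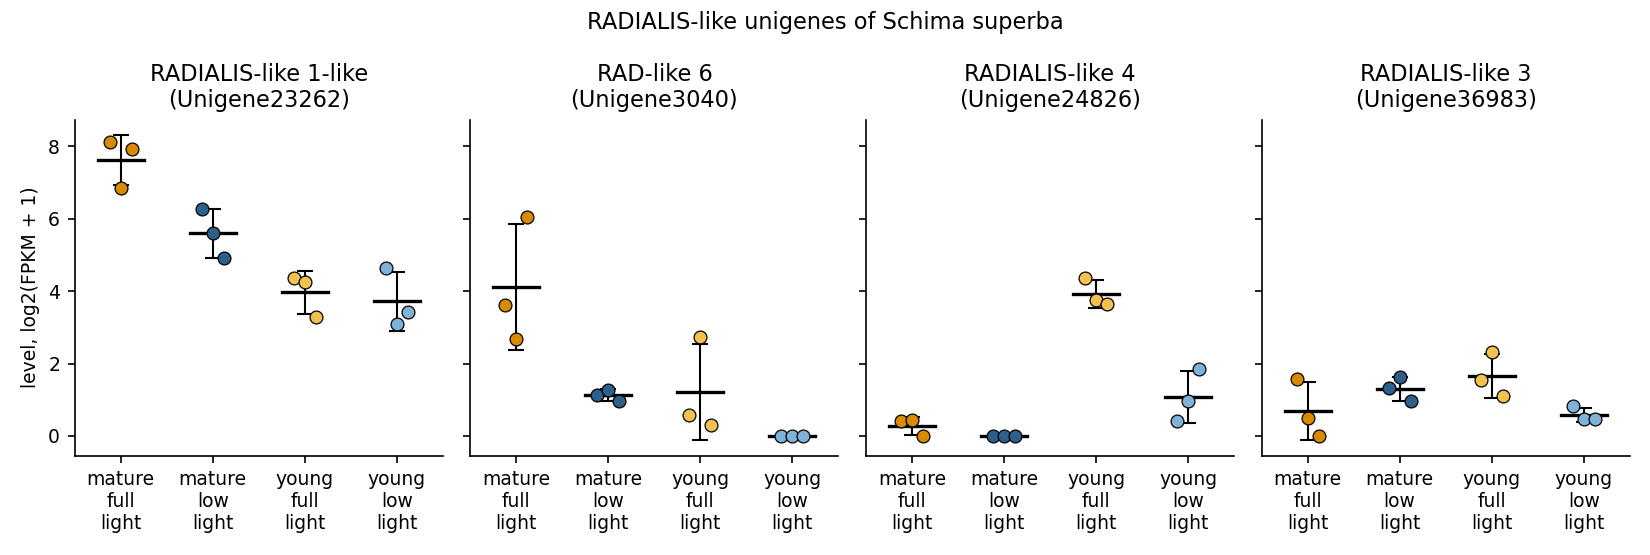
Level of the 4 RADIALIS-like unigenes of S. superba in each library as log2(FPKM + 1), with the group mean and SD on that scale (n = 3). Unigene23262 lies higher in mature than in young leaves, and Unigene24826 is highest in young full light, at 11.46 to 19.41 FPKM.

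The descriptions themselves rest on sequence likeness. Unigene17301 matched a lotus (Nelumbo nucifera) protein with an E-value of 1.1e-30, and Unigene8154 a melon (Cucumis melo) protein with 6.0e-27. In the authors' pathway column all 6 RADIALIS-like unigenes of both trees had the same first hit, a rice sequence filed as polygalacturonase (K01184), an enzyme that cuts pectin in the cell wall. K01184 was the first entry of 21 unigenes in C. concinna, and 4 of these, the RADIALIS-like pair included, pointed to that rice sequence.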

How the data were processed

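Leaf RNA of 24 libraries was analysed, 12 per tree, 3 per group. The authors' deposited tables held FPKM per library and unigene, one column per library per the file headers, made with RSEM 1.2.12 per the submitters' processing notes; the sources used here name no assembler or aligner. FPKM carry no depth, so count models were not fitted. Exact zeros were read as listed at 0. Descriptions are the tables' best hits (36136 of 60814 unigenes in C. concinna and 32354 of 57053 in S. superba).

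Tested were unigenes that reached 1 FPKM in 3 or more of the 12 libraries of a tree (53005 in C. concinna and 50970 in S. superba) as log2(FPKM + 1) in limma 3.58.1 (R 4.3.3) with trend, a mean per group, the 4 groups of a tree sharing the spread, two-sided tests and Benjamini-Hochberg adjustment; called means an adjusted p under 0.05. Light is full minus low, age mature minus young, and light by age the light difference in mature minus that in young leaves, 5 comparisons per tree. Differences for low values are understated by the added 1. Counts at an unadjusted p under 0.05 stand without the share over all unigenes, which was not counted, so they are given as a description. The fit was also run on simulated data with normal scatter, independent between libraries. That run does not cover values near 0 or libraries that deviate together. The 2 RADIALIS-like unigenes of C. concinna were part of the fit, but no p is given for them and nothing is read from their calls.

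The members and lists were chosen with earlier results of these data known. Named were all RADIALIS-like unigenes, the called unigene of each list with the largest absolute log2 difference among those with a mean of at least 5 FPKM in the higher group, and for each member the 5 nearest profiles and 3 nearest transcription factors; DIVARICATA and HY5 unigenes, the summed contigs and the unigenes sharing a rice hit were added after their values were seen. Other settings were a pseudocount of 0.1, median-ratio and quantile scaling, no filter, a mean of at least 5 FPKM, the replicate number as a block, no trend, only the 2 groups compared, each library left out, and, chosen after seeing the data, sums without CL2130.Contig2. Python 3.11.15, numpy 2.4.6, pandas 2.3.3 and matplotlib 3.10.9 served for the rest.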

Additional observations from a re-analysis of the deposited data

Results flagged for a closer look

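The light difference of Unigene24826, RADIALIS-like 4 of S. superba, differed between leaf ages: mature minus young gave -2.56 on the log2 scale by the test of the difference itself (limma, adjusted p = 0.0376). All 3 young full light libraries exceeded all 3 young low light ones, and mature leaves had at most 0.35 FPKM. The call was lost in 10 of 12 fits without 1 library, with adjusted p up to 0.107.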

How the results depend on the processing

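The light difference of Unigene17301 and Unigene8154 in mature leaves kept its sign under every setting run. For Unigene8154 a pseudocount of 0.1 gave 0.36 for light in young leaves, 4.93 for age in full light and 10.2 for age in low light, because its young values are near 0; quantile normalization gave -0.079 for light in young leaves, and light by age ran from -5.54 to -3.87 without 1 library. No unigene of the DIVARICATA, MYB-related, Myb/SANT-like and TCP lists was called for light or light by age under any setting run. Of the 5 nearest profiles, 2 were kept for Unigene8154 and 1 for Unigene17301 when distances used the 4 group means.

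Counts over all C. concinna unigenes depended on the setting, and the cause was not tested. Light in young leaves had 30 calls with a pseudocount of 0.1, 6 with a mean of at least 5 FPKM and 0 with only the 2 groups compared, and 11 to 66 without 1 library. Light in mature leaves had 47 with quantile normalization, 13 with a mean of at least 5 FPKM and 0 with only the 2 groups, and 12 to 64 without 1 library. Light by age had 5 with median-ratio scaling, 7 with quantile normalization, 1 with a mean of at least 5 FPKM and 2 to 13 without 1 library. Age in full and low light had 9153 and 10289 with a mean of at least 5 FPKM, where fewer unigenes are tested.

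In S. superba a pseudocount of 0.1 gave 1303 calls for light in young leaves and 476 for light by age, only the 2 groups gave 4 for light in mature leaves, and a mean of at least 5 FPKM gave 14412 and 12159 for age in full and low light. Without 1 library the ranges were 481 to 3349 for light in young leaves, 143 to 492 in mature leaves and 71 to 761 for light by age. Of its 4 RADIALIS-like unigenes, 0 were called for light in young leaves with a mean of at least 5 FPKM, which leaves Unigene24826 untested. For age in low light 1 was called under median-ratio, quantile, the mean of at least 5 FPKM and the block, and 0 to 2 without 1 library. For light by age 0 were called with a pseudocount of 0.1, under median-ratio, quantile, the mean of at least 5 FPKM and the block, and 0 to 1 without 1 library. Without young low light replicate 2, the light difference of Unigene23262 in young leaves, 0.24 and not called with all libraries, was -0.073; over the libraries left out it ran from -0.073 to 0.70.

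How far same-numbered libraries deviated together was measured as r, which ran from -0.24 to 0.256 in C. concinna and -0.027 to 0.324 in S. superba. It was over 0.1 in 5 and 3 of 18 pairs, against 7 and 4 of 36 differently numbered pairs. Where a mature and a young S. superba library shared light and number, r was always positive, from 0.030 to 0.324. With the same light but different numbers it ran from -0.2465 to 0.132. The matching C. concinna ranges were -0.116 to 0.256 and -0.248 to 0.221. The numbers were not taken as pairs in the main fit, and whether they mark shared plants was not tested. With the replicate number as a block, C. concinna had 10 calls each for light in young and in mature leaves, neither RADIALIS-like unigene among them, and S. superba had 262 for light in mature leaves and 331 for light by age. FPKM without counts leave the error of values near 0 unknown.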

Other observations

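Further unigenes had the same rice sequence as first pathway hit as the RADIALIS-like ones, without RADIALIS in their description; they were found after the data were seen. In C. concinna Unigene4607, an unnamed protein product, had 4.25, 4.75 and 3.85 FPKM in mature full light and 9.66, 7.06 and 7.52 FPKM in mature low light. These groups did not overlap, but the log2 difference of -0.77 did not pass (adjusted p = 0.838, limma). Unigene17764, another unnamed protein product, had at most 2.73 FPKM in any library.

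In S. superba 6 further unigenes had that hit, of which 5 were tested, and 4 of these were called higher in full than in low light in young leaves, beside 5.33% of all unigenes called in either direction. They are contigs of only 2 clusters, so they are not independent. CL6390.Contig1 and CL6390.Contig2 are described as dnaJ homolog subfamily C member 2-like. CL6390.Contig2 had 767.68, 1595.42 and 625.2 FPKM in young full light and 254.88, 67.3 and 29.99 FPKM in young low light (log2 difference 3.49, adjusted p = 0.0471, limma). CL6390.Contig1 had 141.53, 173.29 and 45.3 FPKM against 3.64, 1.8 and 3.12 FPKM (4.80, adjusted p = 0.00189, limma), and at most 1.32 FPKM in mature leaves. CL4757.Contig1 and CL4757.Contig2, with no hit, differed by 2.48 and 1.69 (adjusted p = 0.0243 and 0.0183, limma), at no more than 9.72 FPKM in young leaves. Unigene26637, a hypothetical protein, was not called (0.83, adjusted p = 0.525, limma). Reads may be split between contigs of a cluster. These are the same groups in which Unigene24826 was higher. DnaJ C2 proteins carry SANT domains like that of RADIALIS, and whether these contigs belong to the RADIALIS family was not tested.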
